A study of Mus musculus with 6 samples.

Results

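The mitochondrial ribosome is the separate translation machine inside mitochondria. The transcripts of its proteins, the genes named Mrpl for the large and Mrps for the small subunit, were followed here in CD4+ T cells restimulated with or without engagement of the costimulatory receptor ICOS. Every gene whose symbol starts with Mrpl or Mrps followed by a digit was taken, which gave 77 genes of the 19937 measured. They are 77 of the 78 protein-coding genes with such symbols in RefSeq, and Mrpl53, whose only probe set carries 2 gene symbols, was not analysed here. Of the 77, 26 encode small subunit proteins and 50 large subunit proteins. Mrps36 is in neither count, because the protein is known as a part of the alpha-ketoglutarate dehydrogenase complex.

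The proteins of this ribosome are all encoded in the nucleus and imported, while its RNAs come from mitochondrial DNA. It makes only the few respiratory chain and ATP synthase subunits that mitochondrial DNA encodes, so it joins 2 genomes in building the respiratory complexes. Part of its proteins descend from those of the bacterial ribosome and part are found only in mitochondria, and activated T cells are known to enlarge their mitochondrial mass before they divide.

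The starting cells were naive CD4+ T cells of B6 mouse spleen, which had been activated with antibodies to CD3 and CD28 over 2 days and then rested overnight. The cells of the first group were then coated for 20 min with anti-CD3, and those of the second with anti-CD3 and anti-ICOS together, before goat anti-hamster antibody cross-linked the bound antibodies for 8 h. Affymetrix Mouse Gene 1.0 ST arrays were used, 1 for each of 4 cultures with anti-CD3 alone and of 2 with anti-ICOS added. The labels call the arrays biological replicates and give neither the number, age or sex of the mice nor any pooling, so the spread behind each p-value may be technical. Values are log2(intensity + 16) throughout, a difference is the mean with anti-ICOS less the mean with anti-CD3 alone, and levels of different genes were not set against each other, since each probe set has its own response.

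Anti-CD3 replicate 4 stood apart from the other anti-CD3 arrays. It lay nearer the anti-ICOS mean than the mean of replicates 1 to 3 in 58 of the 77 genes (75.3%), against 78.1% of all genes, so results are given with and without it. Leaving out an array because it lies near the other group favours larger differences and smaller p-values. Calls made without it therefore describe the remaining 5 arrays and are not independent support for a difference. Over the 6 arrays the T cell markers Cd3e and Cd4 read between 12.40 and 12.81 and between 11.95 and 12.45, and the lowest of the 8, Zap70, between 10.64 and 10.99. The 7 B cell markers ranged from Cr2, between 7.69 and 8.32, to Cd79b, between 12.31 and 12.70. The CD8 T cell markers Cd8a and Cd8b1 read between 9.98 and 10.32 and between 11.49 and 11.76. The myeloid gene Lyz2 read 6.70 to 6.77 in replicates 1 to 3, 8.53 in replicate 4, and 8.47 and 9.67 with anti-ICOS. Median differences over the marker lists were 0.44 for 8 NK cell, 0.32 for 8 monocyte and macrophage, 0.18 for 9 dendritic cell, 0.15 for 9 neutrophil, 0.16 for 7 B cell and -0.14 for 8 T cell genes. They were 0.086 for 2 CD8 T cell and 0.092 for 2 erythroid genes. The summed intensity of the monocyte and macrophage list was 761 to 793 in replicates 1 to 3, 1238 in replicate 4, and 1259 and 1908 with anti-ICOS. The median of the list, less the mean of replicates 1 to 3, was 0.039 in replicate 4 and 0.26 and 0.45 with anti-ICOS. Replicate 4 lay above replicates 1 to 3 in 3 of the 8 genes, below them in 3 and within their range in 2. For the neutrophil list the summed intensity was 481 to 618 over the anti-CD3 arrays, and 647 and 1462 with anti-ICOS. Its median, less the mean of replicates 1 to 3, was -0.16 in replicate 4 and 0.097 and 0.063 with anti-ICOS. Of the markers in all lists only Flt3, a receptor of dendritic cells, passed the test with all 6 arrays (1.26, limma adjusted p = 0.00321). Without replicate 4, limma called 17.1% of all genes higher and 12.7% lower. Among the markers it called 7 of the 8 NK cell, 5 of the 8 monocyte and macrophage, 4 of the 9 dendritic cell, 3 of the 9 neutrophil and 3 of the 7 B cell genes higher. It called 4 of the 8 T cell genes and 1 B cell gene lower. The part of such cells in the values below was not tested, and in bulk RNA fewer cells of a type and less RNA per cell cannot be told apart.

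With all 6 arrays none of the 77 genes passed the test (0 of 77, smallest limma adjusted p = 0.414), where 0.271% of all genes did. At an unadjusted p under 0.05, 3 genes lay higher with anti-ICOS (Mrps34, Mrps18b and Mrpl20), against 6.24% of all genes. The other direction held 1 gene, Mrpl54, against 5.56% of all genes. The median difference was 0.036, with quartiles of -0.044 and 0.11, and single genes ran from -0.32 for Mrpl28 to 0.36 for Mrps34. It was above 0 in 46 genes (59.7%) and below 0 in 31. Above 0 were 42.3% of all genes and 58.2% of those outside the dimmest 40%. Over all genes the median was -0.031, and over the 11962 genes outside the dimmest 40%, to which all 77 belong, it was 0.043. The members' median turned to -0.040 after quantile normalization, where all genes stood at -0.046, and to -0.037 when replicate 4 was the only anti-CD3 array used as reference.

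The limma intervals with all 6 arrays give the precision of these differences. The median standard error of a difference was 0.096 on the log2 scale. In 73 of 77 genes (94.8%) the whole 95% interval lay within a 1.5-fold change in either direction, against 82.1% of all genes. An exact permutation test of 1 gene with 4 against 2 arrays cannot give a one-sided p below 0.0667, or 0.133 when that p is doubled.

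**Figure D1:**
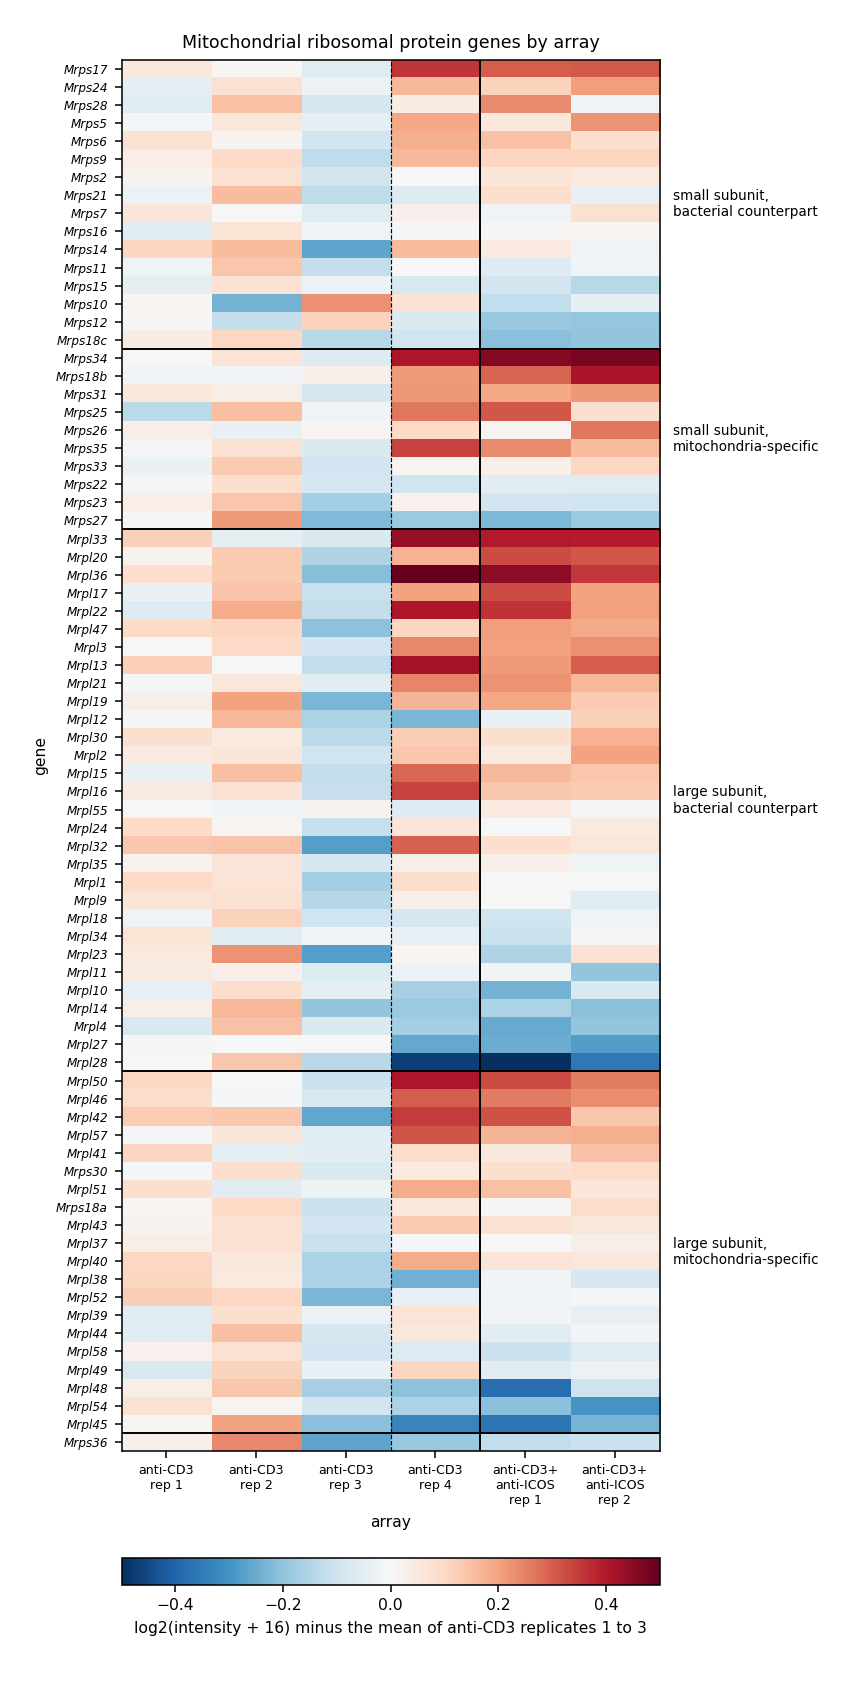
Each of the 77 genes (vertical axis, grouped by subunit and ancestry and ordered by difference) on each of the 6 arrays (horizontal axis), as log2(intensity + 16) minus the mean of anti-CD3 replicates 1 to 3, with values beyond the colour scale in its end colours. Each subunit and ancestry group holds genes with differences above and below 0, and Mrps36 stands alone. Replicate 4 lies nearer the anti-ICOS columns in 58 genes, and replicate 3 is the lowest of replicates 1 to 3 in 62.

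Leaving out anti-CD3 replicate 4 brought 11 of the 77 genes past the threshold (14.3%), where 29.7% of all genes passed. Among the 11962 brighter genes 39.1% passed. Higher with anti-ICOS were 8 members (10.4%, against 17.1% of all genes): Mrps34, Mrps18b, Mrps17, Mrpl33, Mrpl20, Mrpl36, Mrpl50 and Mrpl46. Lower were 3 members (3.90%, against 12.7% of all genes): Mrpl28, Mrpl27 and Mrpl54. The median difference of the 77 was then 0.049, beside -0.041 for all genes and 0.068 for the brighter ones. No member moved by 1.5-fold in either direction, while 752 of all genes lay more than 1.5-fold higher and 377 more than 1.5-fold lower.

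With replicate 4 as the only reference, none of the 77 passed (0 of 77, limma adjusted p = 1 at the smallest, 0.176% of all genes passed). None had an unadjusted p under 0.05, against 5.10% of all genes. The median difference was -0.037, beside -0.013 for all genes, with 27 members above 0 (35.1%) and 50 below. Above 0 were 44.5% of all genes and 40.6% of the brighter ones. With limma's array quality weights, which gave replicate 4 the lowest weight (0.15) and replicate 1 the highest (4.53), 27 members passed (35.1%, against 47.2% of all genes), 17 of them higher (22.8% of all genes) and 10 lower (24.4% of all genes). Without replicate 4 and with these weights, the share of members called stood below that of all genes.

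The promoters of members that stood at the ends of the range are shown because the genes of this ribosome are known targets of nuclear respiratory factors, and because the sequences let the motifs be seen in place. RefSeq promoters on GRCm38.p6 were at hand for 68 of the 77 genes (74 start sites), each from 250 bases before to 50 bases after the start. Capitals mark matches, on either strand, to the NRF1 letters GCGCATGC, the ETS letters CCGGAAG that GABP binds, the YY1 letters AAGATGGC and the E-box CACGTG of Myc and its relatives. The 2 genes with the highest difference that have a promoter in the table are Mrps18b (chr17:35916391-35916690, minus strand) and Mrpl33 (chr5:31613701-31614000, plus strand). Those with the lowest are Mrpl28 (chr17:26123253-26123552, plus strand) and Mrpl45 (chr11:97315466-97315765, plus strand).
Mrps18b: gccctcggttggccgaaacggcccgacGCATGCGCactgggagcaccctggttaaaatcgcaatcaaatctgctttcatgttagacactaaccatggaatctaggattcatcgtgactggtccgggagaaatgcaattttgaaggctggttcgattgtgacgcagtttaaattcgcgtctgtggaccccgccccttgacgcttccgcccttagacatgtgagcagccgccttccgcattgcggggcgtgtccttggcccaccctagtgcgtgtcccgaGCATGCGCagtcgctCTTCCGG
Mrpl33: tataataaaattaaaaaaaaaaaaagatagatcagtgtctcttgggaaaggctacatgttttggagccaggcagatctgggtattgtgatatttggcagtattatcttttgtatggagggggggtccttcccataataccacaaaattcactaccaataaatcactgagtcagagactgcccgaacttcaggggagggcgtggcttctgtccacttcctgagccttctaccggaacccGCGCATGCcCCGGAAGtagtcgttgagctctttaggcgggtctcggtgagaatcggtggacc
Mrpl28: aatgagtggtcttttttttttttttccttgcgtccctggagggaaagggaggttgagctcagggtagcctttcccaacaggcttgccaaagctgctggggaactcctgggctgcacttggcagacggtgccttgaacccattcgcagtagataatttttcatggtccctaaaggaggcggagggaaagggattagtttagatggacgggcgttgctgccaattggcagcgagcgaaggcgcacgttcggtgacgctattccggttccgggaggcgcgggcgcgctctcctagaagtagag
Mrpl45: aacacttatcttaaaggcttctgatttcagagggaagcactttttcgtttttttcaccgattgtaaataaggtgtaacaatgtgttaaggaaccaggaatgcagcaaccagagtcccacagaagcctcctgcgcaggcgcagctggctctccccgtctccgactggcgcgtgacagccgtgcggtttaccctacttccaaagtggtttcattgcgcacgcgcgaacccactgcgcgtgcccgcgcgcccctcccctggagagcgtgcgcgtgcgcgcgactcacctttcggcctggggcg
Counted from the start base as 0, Mrps18b held NRF1 letters at -223 and 28 and ETS letters at 43. Mrpl33 held NRF1 letters at -12 and ETS letters at -3, side by side. Mrpl28 and Mrpl45 held none of these 4 exact strings of letters in this window. Other forms of the same motifs were not searched for, so their absence from these promoters was not shown.

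The same letters were found in other members with no common direction of difference. NRF1 letters stood in 8 of the 74 member promoters (10.8%), against 2.71% of 32851 promoters of all genes and 3.51% of those of protein-coding genes. Around each match in the 6 genes not shown above, 30 bases read as follows.
Mrpl9 at -28: gaggcgcagctGCGCATGCgcggggtcctt
Mrpl17 at -11: gccgagttactGCGCATGCgtcctctgaga
Mrpl22 at -33: ggcctcggactGCGCATGCgtatagtcagc
Mrpl10 at -134: cccagctccacGCATGCGCatagcggccct
Mrpl32 at -87: ctttgacccttGCGCATGCgcaagaggggc
Mrpl32 at -66: aagaggggcctGCGCATGCtctgagcgagg
Mrpl32 at -22: gcggacttaacGCATGCGCtcagcccgcgt
Mrpl39 at -125: caaggagaggcGCGCATGCgcccccgcgtg
The median difference over the 8 genes with NRF1 letters was 0.091 and over the 60 without 0.027, and Mrpl10 (-0.11) and Mrpl22 (0.18) both carried them. Without replicate 4 these medians were 0.17 and 0.027. ETS letters stood in 33.8% of member promoters, against 8.86% of all promoters and 11.6% of protein-coding ones. E-boxes stood in 9.46%, against 7.15% and 7.84%, but 3 of these 7 promoters are overlapping ones of Mrpl2. Counted by gene, E-boxes stood in 5 of 68 members (7.35%), below the 8.91% of protein-coding genes. By gene the shares were 11.8% against 3.93% for NRF1 letters and 36.8% against 12.9% for ETS letters. GC content was 59.0% in member promoters and 53.8% in all, which was not matched for.

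YY1 letters stood in 12 member promoters (16.2%), against 2.75% of all promoters and 3.05% of protein-coding ones. In 8 of them they lay after the start site on the gene's own strand (10.8%, against 0.865% of all promoters), and the windows are shown because the letters then hold an ATG.
Mrpl37 at 26: ctgcacgggcaAAGATGGCggcgtccaggt
Mrpl35 at 23: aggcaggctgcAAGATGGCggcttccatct
Mrpl42 at 27: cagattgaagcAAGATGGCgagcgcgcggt
Mrps24 at 36: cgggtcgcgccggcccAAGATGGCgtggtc
Mrps7 at 18: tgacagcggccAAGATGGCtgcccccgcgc
Mrps27 at 14: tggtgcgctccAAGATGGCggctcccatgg
Mrps18a at 11: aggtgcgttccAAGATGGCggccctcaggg
Mrpl49 at 16: gttgaggcgccAAGATGGCagcagcggtgt
These 8 genes ran from -0.16 for Mrps27 to 0.14 for Mrpl42 in their difference, and the median over all 12 genes with YY1 letters was 0.0073, against 0.040 over the 56 without. Without replicate 4 they were 0.022 and 0.049. Matches are a description of the sequence, and binding was not measured.

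Among the 16 small subunit proteins with a bacterial counterpart the median difference was 0.031, or -0.048 after quantile normalization. Mrps17, the relative of a bacterial protein that binds ribosomal RNA, was the 1 member of this group that passed without replicate 4. It read 7.51, 7.47 and 7.40 in anti-CD3 replicates 1 to 3, 7.82 in replicate 4, and 7.76 and 7.77 with anti-ICOS. Replicate 4 and both anti-ICOS arrays were high and the other 3 low, so the groups overlapped through replicate 4. The difference was 0.21 ± 0.12 (SE) with all arrays (limma adjusted p = 0.434) and 0.30 ± 0.065 without replicate 4 (adjusted p = 0.0121). Against replicate 4 alone it was -0.053, of the opposite sign.

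Mrps12, the protein of the decoding centre, read 7.55, 7.43 and 7.66 in replicates 1 to 3, 7.47 in replicate 4, and 7.36 and 7.35 with anti-ICOS. The anti-ICOS arrays were the lowest of the 6, yet the difference of -0.17 ± 0.085 did not pass (limma adjusted p = 0.423, and 0.105 without replicate 4). Mrps18c, the relative of bacterial S18 that keeps its place in the mitochondrial small subunit, read 9.05, 9.11 and 8.87, then 8.91, and 8.80 and 8.81 with anti-ICOS. Again the groups did not overlap, with a difference of -0.18 ± 0.090 (adjusted p = 0.423). Mrps15, a 3rd small subunit gene with both anti-ICOS arrays lowest, read 10.09, 10.21 and 10.11, then 10.05, and 10.04 and 9.99, a difference of -0.097.

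Mrps16 and Mrps7, relatives of bacterial proteins that act in small subunit assembly, were among the 4 members with the smallest range over the arrays among the brighter of the 77. Mrps16 read 9.42, 9.54 and 9.45 in replicates 1 to 3, 9.47 in replicate 4, and 9.48 and 9.48 with anti-ICOS. Mrps7 read 8.93, 8.87 and 8.81, then 8.90, and 8.85 and 8.95. Their differences of 0.010 and 0.022 were far inside their standard errors of 0.069 and 0.072, and both turned negative after quantile normalization. Of the other 10 members of this group, Mrps24 had the highest difference (0.12) and Mrps10 the lowest (-0.10), and none passed in either fit.

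The 10 small subunit proteins found only in mitochondria had a median difference of 0.11, and of 0.026 after quantile normalization. This group holds both genes with the highest differences of all 77. Mrps34, a protein needed for a stable small subunit and its RNA, read 8.21, 8.28 and 8.14 in replicates 1 to 3, 8.61 in replicate 4, and 8.67 and 8.68 with anti-ICOS. Both anti-ICOS arrays were highest and replicate 4 lay just under them. The group means of 8.31 ± 0.21 (SD, n = 4) and 8.68 ± 0.011 (SD, n = 2) differed by 0.36 ± 0.13, or 1.29-fold (limma adjusted p = 0.417). Without replicate 4 the difference was 0.47 ± 0.067, or 1.38-fold (adjusted p = 0.00246), and against replicate 4 alone 0.061.

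Mrps18b, a small subunit protein, read 9.36, 9.36 and 9.40 in replicates 1 to 3, 9.59 in replicate 4, and 9.66 and 9.78 with anti-ICOS. Its promoter, printed above, held NRF1 letters on both sides of the start. The 3 lowest values were nearly equal, replicate 4 lay between the groups, and the anti-ICOS arrays were highest. The difference was 0.30 ± 0.092 with all arrays (limma adjusted p = 0.414), 0.35 ± 0.066 without replicate 4 (adjusted p = 0.00769) and 0.14 against it. The other 8 genes of this group did not pass in either fit, and ran from -0.16 for Mrps27 to 0.15 for Mrps31.

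The 30 large subunit proteins with a bacterial counterpart had a median difference of 0.043, or -0.043 after quantile normalization. They held 3 of the 8 genes called higher and 2 of the 3 called lower without replicate 4. Mrpl33, a small protein of the large subunit, read 8.17, 8.01 and 7.98 in replicates 1 to 3, 8.49 in replicate 4, and 8.45 and 8.45 with anti-ICOS. Replicate 4 was the highest of the 6 arrays, above both anti-ICOS arrays. The difference was 0.29 ± 0.15 with all arrays (limma adjusted p = 0.423), 0.39 ± 0.077 without replicate 4 (adjusted p = 0.00850), and -0.042 against it.

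Mrpl36, the relative of the smallest protein of the bacterial large subunit, read 9.32, 9.37 and 9.02 in replicates 1 to 3, 9.75 in replicate 4, and 9.69 and 9.59 with anti-ICOS. Here too replicate 4 was highest and replicate 3 lowest. The difference was 0.27 ± 0.18 with all arrays, 0.40 without replicate 4 (limma adjusted p = 0.0279), and -0.11 against it. Mrpl20, whose bacterial relative is an early assembly protein of the large subunit, read 8.17, 8.29 and 8.00, then 8.33, and 8.48 and 8.46 with anti-ICOS. The anti-ICOS arrays were the highest of the 6, and the difference of 0.28 ± 0.10 became 0.32 without replicate 4 (adjusted p = 0.0311).

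Mrpl17, Mrpl13 and Mrpl47 read higher on the anti-ICOS arrays than on replicates 1 to 3 without passing either test. Mrpl17 read 7.90, 8.08 and 7.83 in replicates 1 to 3, 8.14 in replicate 4, and 8.26 and 8.14 with anti-ICOS, a difference of 0.21 (limma adjusted p = 0.0591 without replicate 4). Mrpl13 read 8.24, 8.12 and 8.00, then 8.54, and 8.33 and 8.43, so that replicate 4 lay above both anti-ICOS arrays. Mrpl47 read 7.41, 7.42 and 7.11, then 7.42, and 7.52 and 7.50, with the anti-ICOS arrays highest but replicate 3 setting most of the spread. A 2nd probe set of Mrpl47 gave a difference of -0.0049 in place of 0.17.

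Mrpl28, the relative of bacterial L28, had the lowest difference of the 77. It read 8.62, 8.76 and 8.48 in replicates 1 to 3, 8.16 in replicate 4, and 8.10 and 8.26 with anti-ICOS. Replicate 4 was low, between the anti-ICOS arrays. The group means of 8.50 ± 0.26 (SD, n = 4) and 8.18 ± 0.11 (SD, n = 2) differed by -0.32 ± 0.16 (limma adjusted p = 0.423), and by -0.44 ± 0.095 without replicate 4 (adjusted p = 0.0130). Against replicate 4 alone the difference was 0.027.

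Mrpl27, which reaches toward the site of peptide bond formation in bacteria, read 9.35, 9.35 and 9.36 in replicates 1 to 3, 9.10 in replicate 4, and 9.11 and 9.08 with anti-ICOS. The 3 high arrays were almost equal, and so were the 3 low ones. Its difference was -0.20 ± 0.095 with all arrays and -0.26 ± 0.060 without replicate 4 (limma adjusted p = 0.0153). The call rests on the brighter of 2 probe sets, and the other gave 0.00089 with all arrays and -0.014 without replicate 4. RefSeq lists a pseudogene named after Mrpl27, and which copy each probe set reads was not examined.

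Mrpl4, a protein of the wall of the exit tunnel, read 10.03, 10.25 and 10.04 in replicates 1 to 3, 9.93 in replicate 4, and 9.85 and 9.91 with anti-ICOS. All 4 anti-CD3 arrays lay above the anti-ICOS arrays, by -0.18 ± 0.099 in the mean difference (limma adjusted p = 0.429, and 0.0789 without replicate 4). Mrpl12, the stalk protein that recruits translation factors and also binds the mitochondrial RNA polymerase, read 9.52, 9.70 and 9.37, then 9.30, and 9.50 and 9.65. Replicate 4 was the lowest array for this gene and the anti-ICOS arrays lay within the range of replicates 1 to 3. The difference was 0.099 ± 0.12 (adjusted p = 0.652), and 0.27 against replicate 4 alone, the highest of the 77 in that comparison.

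Mrpl35 was the steadiest gene of this group among the brighter members, at 9.43, 9.48 and 9.33, 9.44, and 9.44 and 9.39 with anti-ICOS, a difference of -0.0060. Mrpl1, of the movable stalk by which the deacylated tRNA leaves, read 8.33, 8.30 and 8.06, then 8.32, and 8.23 and 8.23, with replicate 3 alone low. The other genes of the group, not named above, ran from -0.14 for Mrpl14 to 0.18 for Mrpl22.

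The 20 large subunit proteins found only in mitochondria had a median difference of 0.016, or -0.050 after quantile normalization. Mrpl50 and Mrpl46 passed as higher without replicate 4. Mrpl50 read 8.11, 8.01 and 7.90 in replicates 1 to 3, 8.41 in replicate 4, and 8.33 and 8.27 with anti-ICOS, and Mrpl46 read 8.26, 8.17 and 8.09, then 8.48, and 8.43 and 8.41. In both genes replicate 4 was the highest array. Without it the differences were 0.29 (limma adjusted p = 0.0272) and 0.24 (adjusted p = 0.0373), and against it -0.11 and -0.059.

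Mrpl54 was the 1 gene of this group that passed as lower. It read 9.84, 9.78 and 9.68 in replicates 1 to 3, 9.61 in replicate 4, and 9.56 and 9.47 with anti-ICOS. All 4 anti-CD3 arrays were above both anti-ICOS arrays, and the difference of -0.21 ± 0.088 (limma adjusted p = 0.421) became -0.25 ± 0.074 without replicate 4 (adjusted p = 0.0362). Mrpl45, which anchors the ribosome to the inner membrane beside the exit tunnel, read 8.96, 9.15 and 8.74, then 8.62, and 8.59 and 8.71. Replicate 4 was low with the anti-ICOS arrays, and the difference of -0.22 ± 0.15 did not pass (adjusted p = 0.0868 without replicate 4).

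Mrpl48 read 9.46, 9.57 and 9.26 in replicates 1 to 3, 9.23 in replicate 4, and 9.05 and 9.33 with anti-ICOS. The anti-ICOS arrays lay farther apart than in any other of the 77, and the difference was -0.19 ± 0.13. Mrpl58, a peptidyl-tRNA hydrolase that has become a part of the large subunit, read 9.76, 9.81 and 9.64, then 9.67, and 9.63 and 9.68, a difference of -0.066 ± 0.078. Mrpl39 was steady, at 9.94, 10.07 and 9.96, 10.06, and 9.98 and 9.95. Mrps30 and Mrps18a, which sit in the large subunit despite their symbols, had differences of 0.075 and 0.036, inside their standard errors of 0.074 and 0.083 or close to them. The other genes of the group ran from -0.069 for Mrpl49 to 0.14 for Mrpl42. Mrps36, in neither subunit, read 8.92, 9.13 and 8.63, then 8.70, and 8.77 and 8.79, with replicates 3 and 4 low together and no separation of the groups.

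**Figure D2:**
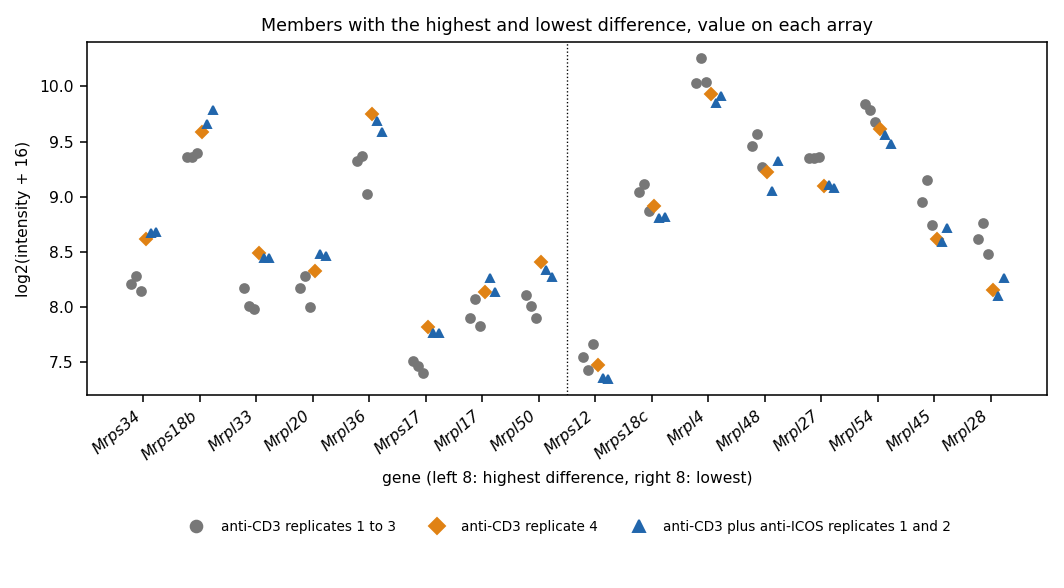
Value of log2(intensity + 16) (vertical axis) on each array for the 8 members with the highest (left) and the 8 with the lowest difference (right), with anti-CD3 replicates 1 to 3 as circles, replicate 4 as diamonds and the 2 anti-ICOS arrays as triangles. The diamond lies beside the triangles in most genes, above both in Mrpl33, Mrpl36, Mrps17 and Mrpl50, and levels of different genes are not comparable.

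The groups did not overlap in 9 members. The anti-ICOS arrays were the 2 highest of the 6 in 4 of them (5.19%: Mrps34, Mrps18b, Mrpl20 and Mrpl47), against 8.51% of all genes. They were the 2 lowest in 5 (6.49%: Mrps15, Mrps12, Mrps18c, Mrpl4 and Mrpl54), against 14.7% of all genes. Set against replicates 1 to 3 alone, the anti-ICOS arrays were above in 22 members (28.6%, against 28.5% of all genes) and below in 9 (11.7%, against 35.1%). Among the brighter genes these 4 shares were 11.8%, 10.9%, 43.0% and 25%, each above that of the members.

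Replicate 4 lay above replicates 1 to 3 in 33 members, below them in 12 and within their range in 32. Over all 19937 genes it lay above in 6873, below in 8465 and within in 4599. Over the 11962 brighter genes it lay above in 6054, below in 3529 and within in 2379. Its gap to the nearest anti-CD3 array, over the range of the 4, exceeded Dixon's critical value in 1 member, Mrpl27 (1.30%), against 6.0% of all genes. Their median level, less the mean of replicates 1 to 3, was 0.018 in replicate 1, 0.077 in replicate 2, -0.096 in replicate 3 and 0.070 in replicate 4, and it was 0.046 and 0.056 on the anti-ICOS arrays. Replicate 3 was the lowest of replicates 1 to 3 in 62 members (80.5%), against 46.1% of all genes and 65.7% of the brighter genes. The median over the brighter genes was also lowest in replicate 3, at -0.062. Without replicate 3 the members' median difference was 0.00030 in place of 0.036, so the distance between the groups in the median was smaller than that between single anti-CD3 arrays.

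**Figure D3:**
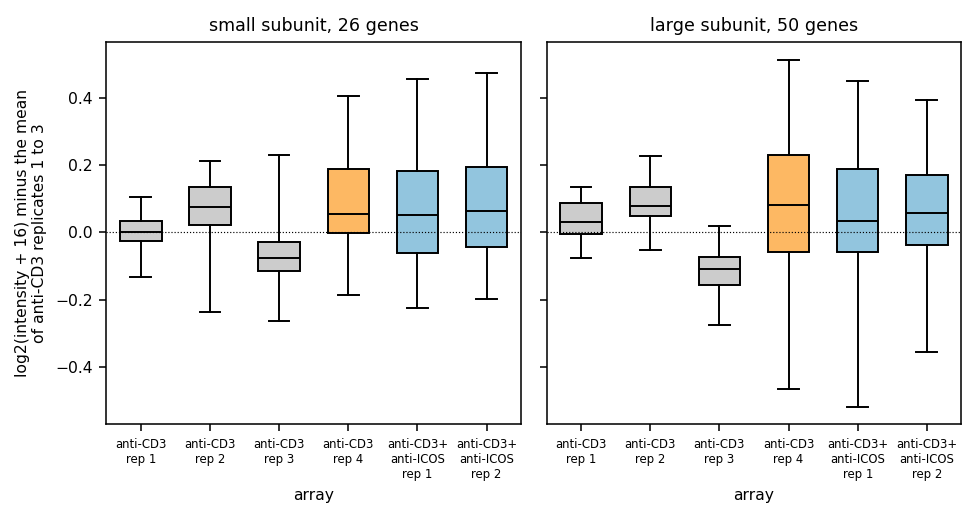
Distribution over the 26 small subunit genes (left) and the 50 large subunit genes (right) of log2(intensity + 16) minus the mean of anti-CD3 replicates 1 to 3 (vertical axis), on each array (horizontal axis), with boxes from quartile to quartile, a line at the median and whiskers to the lowest and highest gene. Replicate 3 has the lowest box in both subunits. The boxes of replicate 4 and of the anti-ICOS arrays are centred slightly above 0. They are also wider, but replicates 1 to 3 are part of the subtracted mean, which narrows their own boxes. The median difference from all 4 anti-CD3 arrays, another measure than the boxes, was -0.023 and -0.046 after quantile normalization, and -0.046 over all genes.

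The difference between the subunits was not tested. The median difference was 0.058 over the 26 small subunit genes and 0.025 over the 50 large subunit genes, and both were negative after quantile normalization (-0.023 and -0.046) and against replicate 4 alone (-0.028 and -0.037). Without replicate 4, 3 of 26 small subunit genes were called, all higher, and 8 of 50 large subunit genes, 5 higher and 3 lower. Of the 5 ribosomal proteins with other symbols, 4 were measured. Dap3, a GTP-binding protein of the small subunit that is also known from studies of cell death, read 10.10, 10.02 and 9.95 in replicates 1 to 3, 9.59 in replicate 4, and 9.45 and 9.53 with anti-ICOS. Replicate 4 lay close to the anti-ICOS arrays, and both of those were below it. The difference was -0.43 ± 0.14 with all arrays (limma adjusted p = 0.414) and -0.54 without replicate 4 (adjusted p = 0.00178).

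The wider machinery of mitochondrial gene expression is given for comparison, from lists of textbook members. With all 6 arrays none of the lists below held a gene past the threshold in limma (0 each). At an unadjusted p under 0.05, where 6.24% of all genes lay higher and 5.56% lower, higher and lower genes numbered 0 and 0 of the 19 mitochondrial translation factors, 1 and 1 of 16 tRNA synthetases, 1 and 0 of 25 assembly factors and 2 and 0 of 15 genes of mitochondrial DNA transcription. The counts were 2 and 0 of 12 regulators, 1 and 0 of 27 import genes, 1 and 3 of 67 oxidative phosphorylation genes, 2 and 0 of 62 cytosolic ribosomal proteins and 10 and 0 of 22 genes of ribosome biogenesis. All counts of calls below are from the 5 arrays without replicate 4, where 29.7% of all genes and 39.1% of the brighter genes were called. They describe those arrays only, since replicate 4 was set apart for its values.

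Translation factors held 6 higher and 1 lower genes of 19 (36.8%). Mtfmt, which formylates the initiator tRNA, rose by 0.51 (limma adjusted p = 0.00244), and Tufm, the mitochondrial elongation factor Tu, fell by 0.36 (adjusted p = 0.0143). Their differences against replicate 4 alone were -0.054 and 0.012, and Tufm stood at 0.00094 with all arrays when its probe sets were averaged. Of 16 tRNA synthetases 7 were higher and 1 lower (50%), with Ears2 at 0.40 and Sars2 at -0.34. Assembly and rRNA modification factors held 5 higher of 25 (20.0%), with Mterf3, a factor of large subunit assembly and transcription, at 0.45 and Trub2, a pseudouridine synthase family member, at 0.31. Mitochondrial DNA transcription and RNA processing held 6 higher of 15 (40%), with Trmt10c, a subunit of mitochondrial RNase P, at 0.47 and the topoisomerase Top1mt at 0.36. Set against replicate 4 alone, the differences were 0.12 for Ears2, -0.051 for Sars2, -0.023 for Mterf3 and 0.15 for Trub2. In that comparison Trmt10c stood at 0.046 and Top1mt at 0.12.

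Regulators of mitochondrial gene expression held 4 higher of 12 (33.3%) without replicate 4. Pprc1, a coactivator related to PGC-1alpha, read 7.26, 7.31 and 7.24 in replicates 1 to 3, 8.02 in replicate 4, and 8.09 and 8.16 with anti-ICOS. Replicate 4 lay almost with the anti-ICOS arrays. Myc, the transcription factor that drives ribosome production, read 9.85, 9.84 and 9.68, then 10.37, and 10.47 and 10.50. Without replicate 4 both rose, Pprc1 by 0.85 and Myc by 0.69, and against it alone they differed by 0.10 and 0.11. The median differences with all arrays were 0.16 for the regulators, 0.15 for mitochondrial DNA transcription, 0.14 for tRNA synthetases, 0.076 for assembly factors and 0.074 for translation factors, and the last 2 turned to -0.0027 and -0.011 after quantile normalization.

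Cytosolic ribosomal proteins and oxidative phosphorylation genes gave 3 higher of 62 (4.84%) and 5 higher with 7 lower of 67 (17.9%) without replicate 4. The oxidative phosphorylation list holds nuclear genes only, so the subunits that the mitochondrial ribosome makes are not in it. The medians of both lists with all arrays were -0.0059 and -0.013. Rpl12 rose by 1.00 and Rps9 by 0.35 on the log2 scale without replicate 4, but differed by 0.16 and 0.11 against it alone. Ndufb2, of complex I, rose by 0.26 and Ndufs4, of the same complex, fell by 0.26. Their differences from replicate 4 alone were 0.099 and -0.17. Import genes held 5 higher and 1 lower of 27 (22.2%), with Timm8a1 at 0.62 and the chaperone Hspa9 at 0.30. From replicate 4 alone Timm8a1 differed by 0.073 and Hspa9 by 0.058. Ribosome biogenesis genes, which build the cytosolic ribosome in the nucleolus, held 16 higher of 22 (72.7%), with Mybbp1a at 0.54 and Rrp12 at 0.40, and a median difference of 0.31 with all arrays that stood at 0.26 after quantile normalization. Against replicate 4 alone that median was 0.054, and Mybbp1a stood at 0.16 and Rrp12 at 0.14. The share called among the 77 mitochondrial ribosomal genes (14.3%) stood below that of all genes (29.7%), and the difference between lists was not tested.

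**Figure D4:**
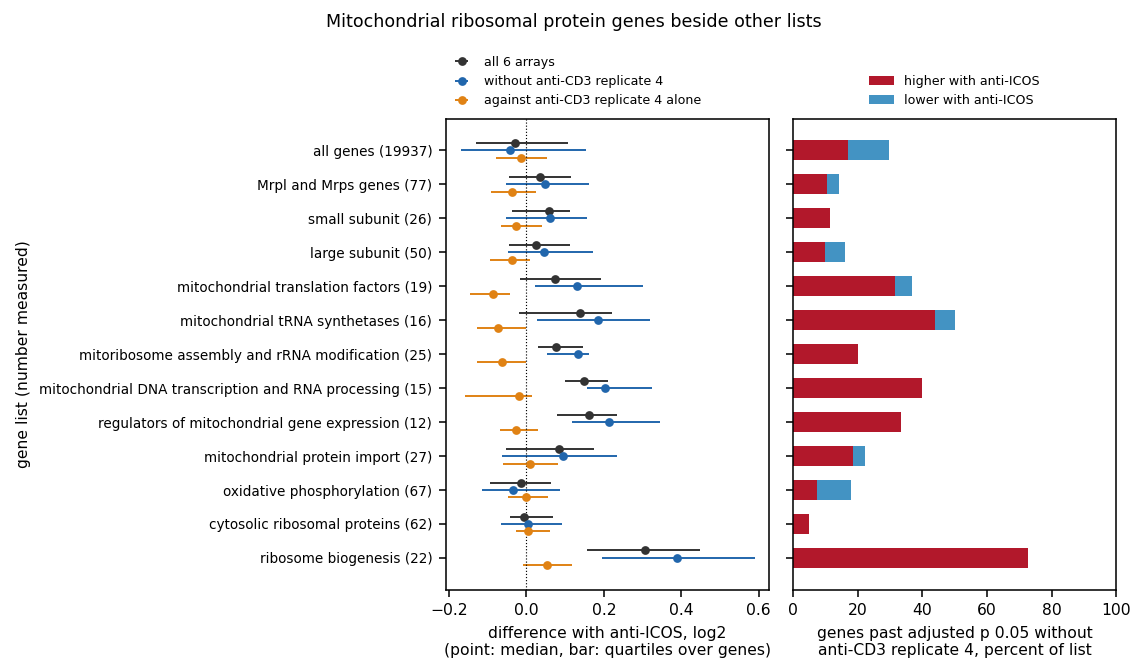
Left, median difference with anti-ICOS (horizontal axis, log2) with bars from quartile to quartile over the genes of each list (vertical axis, number of genes in brackets), for all 6 arrays, without anti-CD3 replicate 4 and against replicate 4 alone. Right, percent of each list past adjusted p 0.05 without replicate 4, where the 77 Mrpl and Mrps genes stand at 14.3% and ribosome biogenesis at 72.7%; the medians of the members, of both subunits, of translation factors and of assembly factors turned below 0 after quantile normalization.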

How the data were processed

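Normalized intensities, 1 linear value per probe set and array, were taken from the values the authors deposited, and MAS5 is the tool named in the submitters' processing notes. The sources used here do not give background correction, probe summary or scaling. If arrays were set to equal levels, a shift shared by most genes would not be seen. Array medians lay between 109 and 114, and the number of arrays limits precision.

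Probe sets with 1 symbol were kept (21640 of 34760), the brightest stood for its gene, and log2(intensity + 16) was fitted over all 19937 genes with limma 3.58.1 in R 4.3.3. Two-sided p-values were adjusted for all genes by the method of Benjamini and Hochberg, at a threshold of 0.05. No expression filter was used.

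The members and lists were chosen with earlier results of these data known. Named were the 8 members of highest and the 8 of lowest difference, those past the threshold, the 6 with replicate 4 farthest from replicates 1 to 3, the 4 steadiest in the brighter part, 7 fixed by role, and 2 genes of smallest p per list. Mrpl46, Mrpl1, Mrpl47, Mrps14 and Mrps15 were added after their values were seen. Steps were tested on simulated data. Alternatives were offsets of 1 and 64, quantile normalization, median centring, leaving out the dimmest 40% of genes, averaged probe sets, a trended robust prior, array weights, a block for the replicate number, omission of single arrays, replicate 4 as the only reference (replicates 1 to 3 then add only to the spread) and a threshold of 0.1. Promoters and gene models came from RefSeq (GRCm38.p6), matched by symbol. Figures were drawn with matplotlib 3.10.9.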

Additional observations from a re-analysis of the deposited data

Results flagged for a closer look

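Within the 4 anti-CD3 arrays, 1 array lay far from the other 3 in a few results, by its gap to the nearest array over the range of the group. Chance gives such a gap in about 1 of 20 groups of 4. It was met by 4 of 77 members (5.19%), against 8.69% of all genes. Mrpl27 read 9.10 in replicate 4. Mrpl1 read 8.06, Mrpl47 read 7.11 and Mrps14 read 7.15 in replicate 3, each below the other anti-CD3 arrays. Pprc1 read 8.02 in replicate 4, and the median level of the oxidative phosphorylation genes was 10.06 in replicate 3. The causes were not tested.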

How the results depend on the processing

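The count of members past the threshold was 0 higher and 0 lower with all 6 arrays, and stayed so with both other offsets, quantile normalization, median centring, the filter, averaged probe sets, the trended prior, a threshold of 0.1 and replicate 4 as the only reference. Array quality weights gave 17 higher and 10 lower. Leaving out 1 array gave from 0 to 8 higher and from 0 to 3 lower, and only leaving out anti-CD3 replicate 4 gave any. With a replicate block, 8 members were higher and 10 lower (all genes 32.9%). Anti-CD3 replicates 3 and 4 have no anti-ICOS array of the same number. That fit therefore takes the difference from replicates 1 and 2 alone, and so also sets replicate 4 aside. Whether same-numbered arrays were paired is not known. Their deviations from the group means correlated at -0.039 and 0.10, which cannot decide it. With 2 anti-ICOS arrays the deviations are exact opposites, and replicate 4 is part of the anti-CD3 mean. The median differences of the members, the small and the large subunit changed sign after quantile normalization and against replicate 4. They moved by less than the SD of each list's median level over the 4 anti-CD3 arrays (0.098, 0.12 and 0.10). That SD is of levels and not of the differences that moved. The large subunit median was also negative without replicate 3 (-0.019) and with the block (-0.025).

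With replicate 4 as the only reference the sign turned for Mrpl33 (-0.042), Mrpl36 (-0.11), Mrps17 (-0.053), Mrpl50 (-0.11), Mrpl28 (0.027), Mrpl45 (0.030), Mrpl13 (-0.16), Mrps36 (0.074), Mrps18a (-0.0041), Mrpl46 (-0.059), Mtfmt (-0.054), Tufm (0.012) and Mterf3 (-0.023). It turned after quantile normalization for Mrps16 (-0.068), Mrps7 (-0.070) and Mrps18a (-0.040), with averaged probe sets for Tufm (0.00094), with array weights for Mrps7 (-0.014), and with the block for Mrps7 (-0.0016), Mrpl12 (-0.037) and Mrps18a (-0.0051). Over the fits that leave out 1 array, Mrps16 ran from -0.0073 to 0.034, Mrps7 from -0.025 to 0.070, Mrpl35 from -0.036 to 0.016, Mrps36 from -0.14 to 0.028, Mrps18a from -0.0071 to 0.079, Mrpl1 from -0.084 to 0.0056 and Mrps14 from -0.13 to 0.015. The causes were not tested.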
